A study of Mus musculus with 7 samples.

Results

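Replication origins were examined at the 7 mouse genes of translesion synthesis and repriming, Rev1, Rev3l, Mad2l2, Polh, Poli, Polk and Primpol, out of 21631 protein-coding genes on the autosomes and X. The genes were chosen by name and by no measured value, though earlier results of these data were known at the time. Each was taken as its RefSeq body in GRCm38.p6, the patch release of mm10, plus 5 kb on either side, called its window. Origins had been mapped in mouse embryonic stem cells by sequencing short nascent strands, the short pieces of new DNA that flank a fresh start of replication. The labels name 3 conditions with 2 libraries each, called WT, APH and CDC6, and 1 Input sample, which was not analysed here. The design asks where replication starts in control cells and under 2 kinds of replication stress.

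WT 2, APH 1, APH 2, CDC6 1 and CDC6 2 came from TetO-CDC6 cells, a line derived from a mouse model that carries a doxycycline-inducible CDC6 transgene. APH cells received 0.5 µM aphidicolin, an inhibitor of the replicative DNA polymerases, for 2.5 h. CDC6 cells received 1 µg/ml doxycycline for 30 h so that CDC6, a loader of the replicative helicase, was overexpressed. WT 2 was the same line without either agent. WT 1 was untreated too, but came from a different embryonic stem cell line grown in another medium, and is labelled as an earlier submission. No library of cells given doxycycline without the transgene is named, so an effect of doxycycline itself and of CDC6 cannot be told apart. The labels do not say that the 2 libraries of a condition were separate cultures, and the spread behind every p-value may therefore be technical. The libraries hold DNA, so neither the induction of CDC6 nor the RNA of the 7 genes was measured.

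The deposited MACS2 lists held between 71435 and 94747 peaks per library, down to a q-value of 0.1, and the median peak was 2.43 to 2.73 times its control. Each condition also had 1 list of origins, with 20178 in WT, 31653 in APH and 31384 in CDC6. Read numbers are not in the lists, so depth is unknown, and precision is limited by how many peaks a window holds. WT 1 stood apart, with 8.26% of its peaks on chromosome 8 against 4.86% to 5.53% in the other 5 libraries. Each library also had a second list, and some of these went against their labels: the whole WT origin list (100% of its entries) recurred in the second list labelled APH 1 and the whole APH list in the one labelled CDC6 1, while the whole CDC6 list recurred in the one labelled CDC6 2. The MACS2 lists fitted their labels, since the pair of the same condition overlapped at least 99.4% of each origin list, so MACS2 and origin lists were used as labelled.

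Translesion polymerases take over when a replicative polymerase stalls at a damaged base, insert a nucleotide across from it and hand the strand back. The switch is set by ubiquitin on PCNA, the sliding clamp. Rev1 is a deoxycytidyl transferase and the scaffold on which the other Y-family polymerases gather. Rev3l is the catalytic subunit of polymerase zeta, the main extender beyond a lesion, and Mad2l2, also called Rev7, is the subunit that links it to Rev1. Polh bypasses ultraviolet dimers, Polk bypasses bulky adducts of the minor groove, and Poli is an error-prone relative of Polh. Primpol is a primase that restarts synthesis downstream of a lesion. Mammalian origins are known to be frequent at CpG-rich promoters.

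The promoters that the results turn on are shown here, from the RefSeq promoter table of GRCm38.p6, as 250 bases before and 50 bases after a transcription start, read 5′ to 3′ on the strand of the gene, with every CG dinucleotide in capitals. The Rev1 promoter lay under the strongest peak of the group, and Mad2l2 and Polk each have one promoter under an origin of all 3 lists and another under none. The Rev1 promoter is chr1:38129617-38129916 (minus strand), the Mad2l2 promoters are chr4:148130670-148130969 and chr4:148140240-148140539 (plus strand), and the Polk promoters are chr13:96542530-96542829 and chr13:96519138-96519437 (minus strand).
Rev1 promoter, origin in all 3 lists: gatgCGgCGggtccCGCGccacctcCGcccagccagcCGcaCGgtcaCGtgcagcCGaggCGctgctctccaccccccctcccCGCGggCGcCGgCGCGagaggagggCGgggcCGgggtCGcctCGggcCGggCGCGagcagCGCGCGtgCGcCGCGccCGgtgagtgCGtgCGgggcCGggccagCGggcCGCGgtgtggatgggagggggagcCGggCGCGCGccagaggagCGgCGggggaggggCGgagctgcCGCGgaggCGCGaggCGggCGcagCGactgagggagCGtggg
Mad2l2 upstream promoter, origin in all 3 lists: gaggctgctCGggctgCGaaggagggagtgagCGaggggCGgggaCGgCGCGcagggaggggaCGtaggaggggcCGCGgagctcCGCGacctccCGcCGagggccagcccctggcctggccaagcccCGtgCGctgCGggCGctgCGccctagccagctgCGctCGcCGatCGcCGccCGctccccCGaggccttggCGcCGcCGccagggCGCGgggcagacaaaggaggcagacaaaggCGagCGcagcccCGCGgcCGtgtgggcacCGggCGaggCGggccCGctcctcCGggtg
Mad2l2 internal promoter, no listed origin: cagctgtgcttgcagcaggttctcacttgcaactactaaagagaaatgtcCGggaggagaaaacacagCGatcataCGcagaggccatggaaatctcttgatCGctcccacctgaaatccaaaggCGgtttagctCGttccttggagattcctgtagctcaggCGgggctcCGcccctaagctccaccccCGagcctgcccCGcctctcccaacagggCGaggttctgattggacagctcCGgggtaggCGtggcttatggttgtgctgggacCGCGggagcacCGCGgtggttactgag
Polk upstream promoter, origin in all 3 lists: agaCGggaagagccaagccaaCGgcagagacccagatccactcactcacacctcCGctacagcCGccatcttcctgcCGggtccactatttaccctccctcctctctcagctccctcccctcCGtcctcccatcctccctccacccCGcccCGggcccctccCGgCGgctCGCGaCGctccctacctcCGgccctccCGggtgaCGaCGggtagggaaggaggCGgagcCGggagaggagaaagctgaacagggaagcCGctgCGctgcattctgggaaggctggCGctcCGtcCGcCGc
Polk internal promoter, no listed origin: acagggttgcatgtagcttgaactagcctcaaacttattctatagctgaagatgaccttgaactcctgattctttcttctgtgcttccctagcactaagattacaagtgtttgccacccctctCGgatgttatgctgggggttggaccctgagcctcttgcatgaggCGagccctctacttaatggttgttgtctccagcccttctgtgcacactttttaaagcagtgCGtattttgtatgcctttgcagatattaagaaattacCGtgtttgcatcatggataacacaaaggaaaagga

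All 7 genes had a WT origin in their window, and 6 had an APH origin and 6 a CDC6 origin, where 48.1%, 53.6% and 58.5% of all protein-coding genes had one. The 6 genes with origins of all 3 lists were Rev1, Rev3l, Mad2l2, Polh, Polk and Primpol, against 41.6% of all genes. Poli was the exception, with 1 WT origin and none in the other lists, although lists rebuilt from MACS2 peaks that recur in both libraries of a condition held an origin at all 7 genes in each condition. Longer windows meet more origins, and among genes with windows of similar length the share with all 3 lists was 35.5% for Mad2l2, 43.4% for Poli, 45.8% for Polh, 51.0% for Primpol, 60.2% for Polk, 64.3% for Rev1 and 74.3% for Rev3l. A condition has 1 list, so these counts carry no replicate error and no test.

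The 26 listed origins of the windows, 8 from WT, 10 from APH and 8 from CDC6, merged into 12 regions. In all 6 of these genes, 1 region of all 3 lists covered an end of the gene, which was the start of the gene in the 5 with a known strand. The same held for 22.6% of protein-coding genes. The seventh region of all 3 lists lay inside Polk. The other 5 regions were in 1 list each, 3 of them in APH, 1 in CDC6 and 1 in WT.

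**Figure D1:**
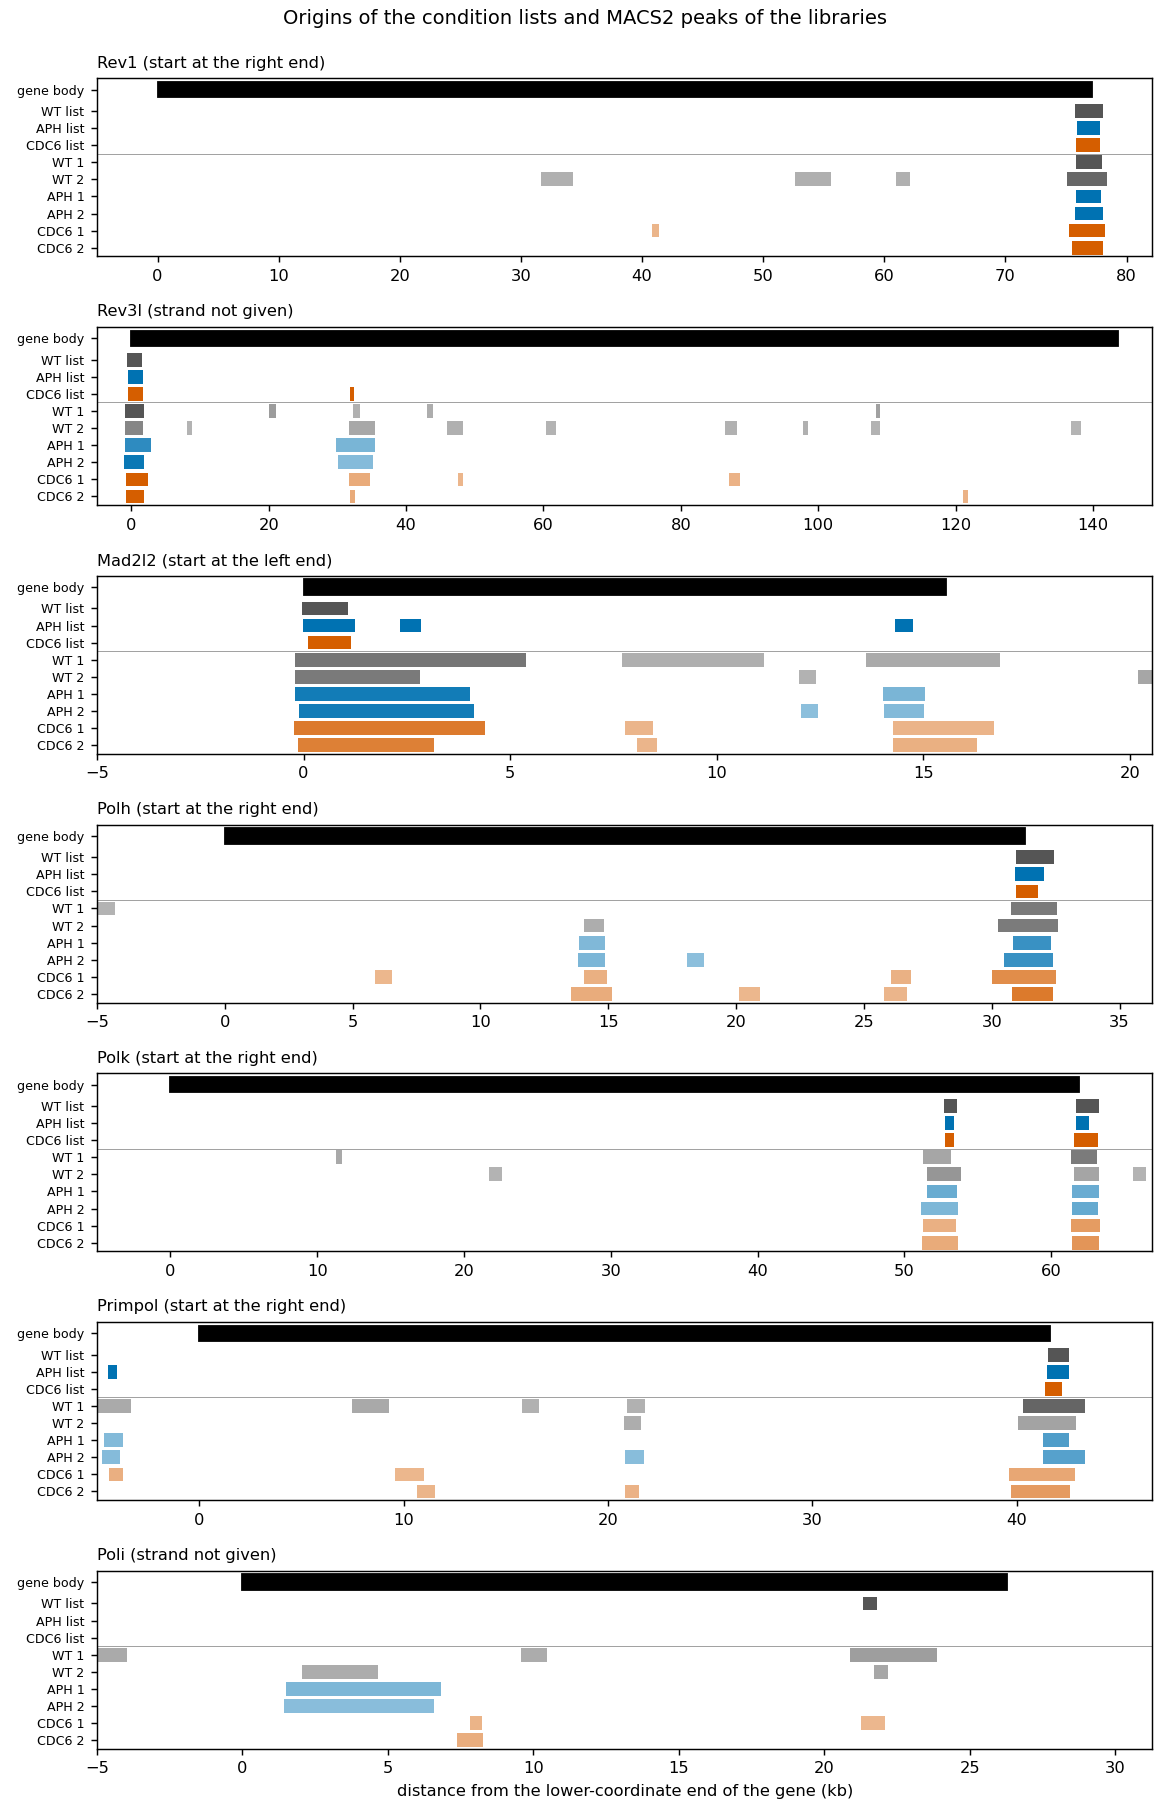
Each panel plots 1 gene on a scale of kb from its lower-coordinate end, with the gene body in black, the origins of the 3 condition lists below it and the MACS2 peaks of the 6 libraries under the line, a darker bar being a peak of higher fold. Bars of all 6 libraries stack at 1 end of Rev1, Rev3l, Mad2l2, Polh, Polk and Primpol, while the bars of Poli are pale and scattered.

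Rev1, the scaffold gene, had 1 listed origin per condition, at its start, and the strongest peak of the 7 genes in 6 of 6 libraries. The body spans chr1:38052786-38129921 on the minus strand, and the origins were chr1:38128550-38130839 in WT, chr1:38128731-38130588 in APH and chr1:38128607-38130558 in CDC6, each covering the annotated start. The MACS2 peak there was 11.3 and 6.86 times the control in WT 1 and WT 2, 12.3 and 12.6 times in APH 1 and APH 2, and 9.95 and 9.65 times in CDC6 1 and CDC6 2. The APH libraries were the highest and WT 2 the lowest, and the spread within WT covered both CDC6 values. By −log10 q-value the peak ranked at the 99.7th to 99.98th percentile of its own library. Away from the start Rev1 had 3 peaks in WT 2, 1 in CDC6 1 and none in the other libraries, each at a place of its own. The long noncoding Gm5099 starts 2161 bp beyond Rev1 on the opposite strand and outside these origins.

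**Figure D2:**
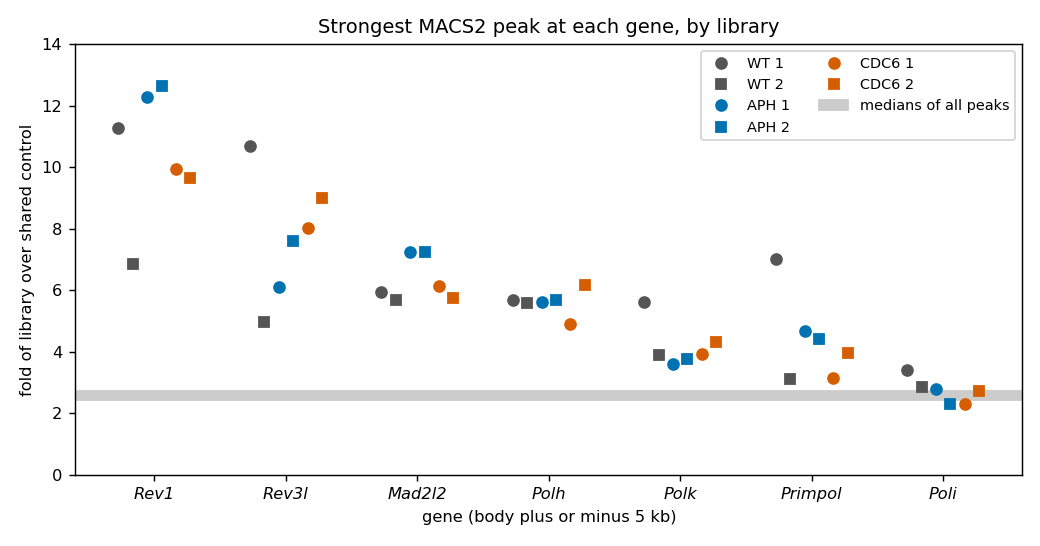
The fold over control of the strongest MACS2 peak in each gene window is plotted for each of the 6 libraries, with the range of the 6 library medians over all peaks as a grey band. Rev1 is the highest in every library, from 6.86 to 12.6, and Poli the lowest, from 2.29 to 3.42, near the band of 2.43 to 2.73.

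Rev3l and Mad2l2, the genes of the group that encode subunits of polymerase zeta, both had a strong origin at 1 end. Rev3l (chr10:39731561-39875211, strand not given in the table) had origins of all 3 lists over its lower-coordinate end, at chr10:39730988-39733082 in WT, chr10:39731039-39733224 in APH and chr10:39731075-39733227 in CDC6. The WT peaks there were 10.7 and 4.97 times the control, the APH peaks 6.09 and 7.60 times, and the CDC6 peaks 8.03 and 8.99 times. The 2 WT libraries were the highest and the lowest of the 6, and the CDC6 pair lay above the APH pair within that spread. The noncoding gene E130307A14Rik overlaps this end of Rev3l by 447 bp, and its own end lies within all 3 origins.

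A further site inside Rev3l, about 32.1 kb from that end, had a peak in all 6 libraries, at 2.23 and 2.77 times the control in WT, 2.93 and 2.42 with APH, and 2.88 and 2.90 with CDC6. It was listed as an origin in CDC6 alone (chr10:39763420-39763993). The peaks of the 6 libraries overlapped in height, so the listing in 1 condition was not matched by a peak in that condition alone. The rule by which origin lists were drawn from the libraries was not stated in the labels or files.

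Mad2l2, on the plus strand of chromosome 4 (chr4:148130158-148145704), had origins of all 3 lists at its upstream start, at chr4:148130111-148131227 in WT, chr4:148130137-148131406 in APH and chr4:148130271-148131313 in CDC6. The fold of the peak there was 5.95 and 5.66 in WT, 7.24 and 7.23 with APH, and 6.13 and 5.74 with CDC6. Both APH libraries were above the other 4, though the highest was only 1.28 times the lowest. The APH list held 2 more origins in Mad2l2, at chr4:148132482-148133007 and chr4:148144463-148144918. The former overlapped the same broad MACS2 peak as the start in all 6 libraries. The latter had a peak of 2.66 in WT 1, none in WT 2, and values of 2.89 and 2.52 for APH and of 2.25 and 2.56 for CDC6, so it was not particular to APH at the level of peaks. Draxin, on the opposite strand, overlaps the start of Mad2l2 by 982 bp, and its own start lies within the origins of all 3 lists there.

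Among the Y-family polymerases, Polh had the narrowest range of peak height at a gene end and Poli was the gene with no site in all 6 libraries. Polh, on the minus strand of chromosome 17 (chr17:46171355-46202641), had origins over its start at chr17:46202305-46203785 in WT, chr17:46202268-46203417 in APH and chr17:46202303-46203155 in CDC6. The peak was 5.67 and 5.60 times the control in WT, 5.61 and 5.68 with APH, and 4.91 and 6.16 with CDC6. The 2 CDC6 libraries were the lowest and the highest, and the whole range was 1.26-fold. The export receptor gene Xpo5 starts 169 bp away on the opposite strand, within the same origins. Inside Polh, a site at chr17:46184916-46186516 had a peak in 5 libraries, all but WT 1, and was in no origin list. A site at chr17:46197140-46198211 had a peak in CDC6 1 and CDC6 2 and in none of the other libraries. Its folds were low, 2.48 in CDC6 1 and 2.20 in CDC6 2, and it was in no origin list. Of all sites of the genome, 15.0% had a peak in 2 libraries, of any condition. The share with a peak in CDC6 1 and CDC6 2 alone was not counted. Poli (chr18:70516048-70516929) and Primpol (chr8:46585170-46587123) each had such a site too. Rev3l had a site with a peak in WT 1 and WT 2 alone (chr10:39839191-39840479).

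Polk (chr13:96480687-96542579, minus strand) was the gene with a second origin of all 3 lists. At its start the origins were chr13:96542404-96543947 in WT, chr13:96542355-96543233 in APH and chr13:96542259-96543889 in CDC6, and they also held the start of Cert1, a ceramide transporter gene 129 bp away on the opposite strand. The fold there was 5.62 and 2.95 in WT, 3.56 and 3.76 with APH, and 3.91 and 4.33 with CDC6. The internal origins, 8.77 kb within the gene from the start, were chr13:96533368-96534249 in WT, chr13:96533468-96534031 in APH and chr13:96533481-96534085 in CDC6. The fold there was 2.90 and 3.90 in WT, 3.62 and 2.78 with APH, and 2.54 and 2.89 with CDC6. The internal peak was the higher of the pair in WT 2 and APH 1 and the lower in the other 4 libraries, so neither site was the stronger throughout. At the start the CDC6 pair lay above the APH pair, both within the spread of WT, and at the internal site the CDC6 pair lay just under the WT pair and overlapped APH.

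Poli, the error-prone relative of Polh, had the weakest peaks, and none of its sites recurred in all 6 libraries. It spans chr18:70508680-70534950, with no strand in the table, and its single listed origin, in WT, was chr18:70529996-70530495, away from both ends of the gene. That origin ranked at the 21.3rd percentile of the WT list by the second of its 2 deposited scores. A peak there was found in WT 1 at 3.42 times the control, in WT 2 at 2.87 and in CDC6 1 at 2.06, and in neither APH library nor CDC6 2. Of all genes, 1.64% had a WT origin and no other, and of genes with windows of like length 2.34%. The other Poli peaks fell at different places. WT 2, APH 1 and APH 2 shared a site at chr18:70510122-70515513, where the APH peaks were 5336 and 5147 bp wide, and CDC6 1 and CDC6 2 shared a site at chr18:70516048-70516929. No site in Poli had a peak in all 6 libraries, whereas each of the other genes had at least 1.

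Primpol, the repriming gene, had origins of all 3 lists over its start but the widest range of peak height at a gene end. It lies at chr8:46575579-46617227 on the minus strand, with origins at chr8:46617121-46618143 in WT, chr8:46617057-46618142 in APH and chr8:46616973-46617814 in CDC6. The fold was 7.01 (WT 1), 3.12 (WT 2), 4.68 (APH 1), 4.42 (APH 2), 3.16 (CDC6 1) and 3.95 (CDC6 2). WT 1 was the highest, 2.25 times WT 2, the lowest, and within that spread the APH pair lay above the CDC6 pair. Primpol is on chromosome 8, where WT 1 had its excess of peaks, and the part of that excess in this value was not tested. The APH list held a further origin beyond the other end of Primpol, at chr8:46571139-46571575, the 5.56th percentile of its list. A peak there was found in WT 1 at 2.65, in APH at 2.51 and 2.45, and in CDC6 1 at 2.58, but not in WT 2 or CDC6 2.

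Set in order within each library, the strongest peaks kept 2 fixed places, Rev1 at the top and Poli at the bottom. Rev3l and Mad2l2 ranked between 2 and 4, Polh between 3 and 5, Primpol between 3 and 6, and Polk between 5 and 6. The median fold over the 6 libraries was 10.6 for Rev1, 7.82 for Rev3l, 6.04 for Mad2l2, 5.64 for Polh, 4.18 for Primpol, 3.91 for Polk and 2.76 for Poli. The ranges of neighbours in this order overlapped, except that Polk (3.62 to 5.62) stayed above Poli (2.29 to 3.42). Folds of different libraries depend on the depth of each, which is unknown, so ranges and differences of fold across libraries are given here as a description.

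The 112 peaks of the 7 windows merged into 45 sites. Of these, 8 had a peak in all 6 libraries (17.8%, against 15.2% of the 164160 sites of the genome), and 23 had a peak in 1 library (51.1%, against 40.0%). Sites of the windows were counted from peaks that met the window alone. A site at a window edge could therefore meet fewer libraries than in the count over the genome. The 8 shared sites were the gene ends of Rev1, Rev3l, Mad2l2, Polh, Polk and Primpol and the internal sites of Polk and Rev3l. Their peaks had a median fold of 5.28 and reached 12.6, while peaks of sites seen in 1 library had a median of 2.27 and stayed between 2.01 and 3.53. WT 1 had 8 of the sites seen in 1 library and WT 2 had 10, together 78.3% of the 23, where the WT libraries had 67.6% of all such sites in the genome. CDC6 1 and CDC6 2 had 2 each, APH 2 had 1 and APH 1 had none. Over the genome WT 1 had 45.9% of the sites seen in 1 library and WT 2 had 21.7%, whereas at these genes WT 2 had more than WT 1. WT 1 had the longest peak list of the 6, and the part of list length in these shares was not tested.

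The number of peaks in a window was then compared between conditions with limma, on log2(peaks + 1) after scaling each library to the same total number of peaks. None of the 7 genes passed an adjusted p of 0.05 in any comparison, and neither did any of the 15141 genes tested (0.0% in either direction). At an unadjusted p under 0.05 there were 1159 genes in APH minus WT, 1335 in CDC6 minus WT and 1460 in APH minus CDC6, of which 1, 1 and 0 were among the 7. The median log2 difference of the 7 was −0.39, −0.26 and −0.26, and that of all genes tested was 0.04, 0.12 and −0.11. The comparisons share libraries and so are not independent. Before scaling, the numbers of APH lay below those of WT without overlap at Rev3l, Poli and Polk, as at 14.7% of the genes tested. Those of CDC6 lay below WT without overlap at Rev3l and Polk, as at 8.16% of genes, and above WT at Polh, as at 7.19%. Those of APH lay below CDC6 at Rev3l and Polh, as at 24.4%. With 2 libraries a condition such separation is common across genes, and the libraries differ in their total number of peaks.

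**Figure D3:**
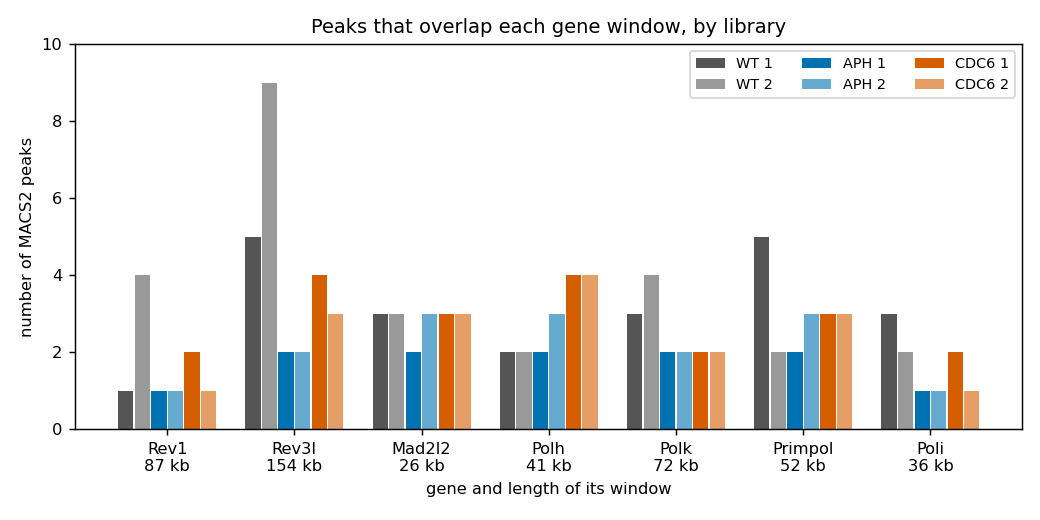
Bars give the unscaled number of MACS2 peaks that overlap each gene window in the 6 libraries, with the window length under the gene name. Rev3l had 5 and 9 peaks in WT against 2 and 2 in APH, and Polh 2 and 2 in WT against 4 and 4 in CDC6.

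Rev3l, the longest gene of the group, had 5 and 9 peaks in WT 1 and WT 2, 2 and 2 with APH, and 4 and 3 with CDC6. All but 1 peak of each library lay away from the gene end, at folds of 2.01 to 3.53. After scaling the means were 6.50 ± 3.27 (SD, n = 2) in WT, 2.18 ± 0.0655 in APH and 3.64 ± 1.05 in CDC6. APH minus WT was −1.17 ± 0.364 (log2, SE), with an unadjusted limma p of 0.0190 and an adjusted p of 0.564. The size changed with the library left out and with the peak threshold. Without WT 2 it was −0.71 and without WT 1, the other cell line, −1.63, with peaks of q at most 0.01 it was −0.25, and counted as covered length it was −0.18. From the second lists, whose labels are in doubt, it was 0.46.

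Polh had 2 peaks in each WT library, 2 and 3 with APH, and 4 and 4 with CDC6. The scaled means were 1.82 ± 0.200 (SD, n = 2), 2.73 ± 0.851 and 4.13 ± 0.366. CDC6 minus WT was 0.86 ± 0.256 (log2, SE), with an unadjusted limma p of 0.0156 and an adjusted p of 0.506. Without WT 1 it was 0.79, with peaks of q at most 0.01 it was 0.73, with windows of 20 kb on either side 0.57, and from the second lists 0.19. Larger values came with gene bodies alone (1.135), by covered length (1.02) and without WT 2 (0.94). The CDC6 sites included the one described above that was found in CDC6 1 and CDC6 2 alone, at low folds and in no origin list.

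The other 5 genes differed by less. Poli had 3 and 2 peaks in WT, 1 and 1 with APH, and 2 and 1 with CDC6, and APH minus WT was −0.63 ± 0.292 (limma adjusted p = 0.665). Polk had 3 and 4, 2 and 2, and 2 and 2. Its APH minus WT was −0.39 ± 0.256 (limma adjusted p = 0.726) and its CDC6 minus WT −0.44 ± 0.256 (limma adjusted p = 0.633). Rev1 had 1 and 4, 1 and 1, and 2 and 1, with the 4 of WT 2 above all others, and APH minus WT was −0.53 ± 0.501 (limma adjusted p = 0.826). Mad2l2 had 3 and 3, 2 and 3, and 3 and 3. Primpol had 5 and 2, 2 and 3, and 3 and 3, where the 5 came from WT 1. Over all 7 genes and the 3 comparisons the adjusted p lay between 0.506 and 0.973.

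The promoter sequences printed above differ in CpG content along with the origins. The table held 7 promoters of 5 of the genes, and none for Rev3l or Poli. The 5 promoters under origins of all 3 lists also had a peak in all 6 libraries, and 22.7% of the 21045 promoters in the table lay under origins of all 3 lists. By gene, all 5 had such a promoter, against 23.9% of the protein-coding genes in the table. Rev1 had 51 CG dinucleotides in 300 bases, 1.02 times the number its base content predicts, and 83% G + C. Polh had 42 (1.11 times), the upstream promoter of Mad2l2 41 (0.884 times), the upstream promoter of Polk 25 (0.744 times) and Primpol 23 (0.778 times). The internal promoter of Mad2l2 had 17 (0.659 times) and a peak in WT 1 alone, and the internal promoter of Polk had 4 (0.271 times) and no peak in any library. The median promoter of the table had 13. In both genes with a pair of promoters, the one with more CG dinucleotides was the one under the origin. It was also the upstream promoter in both, so CpG content and position cannot be told apart here.

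Across the whole table, 44.0% of CpG-rich promoters (at least 0.6 times the predicted number and at least 50% G + C) lay under origins of all 3 lists, and 4.88% of the rest. The median ratio was 0.860 for promoters under origins of all 3 lists and 0.321 for those under none. The internal Mad2l2 promoter met the CpG-rich limits without a listed origin. A G-quadruplex motif (4 runs of at least 3 G, spelled GGG, separated by 1 to 7 bases of any kind, searched on both strands) was found in the promoters of Rev1 and Polh on the strand of the gene, in the upstream promoter of Polk and in Primpol on the opposite strand, and in neither Mad2l2 promoter nor the internal Polk promoter. Of all promoters of this length, 22.3% held the motif.

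**Figure D4:**
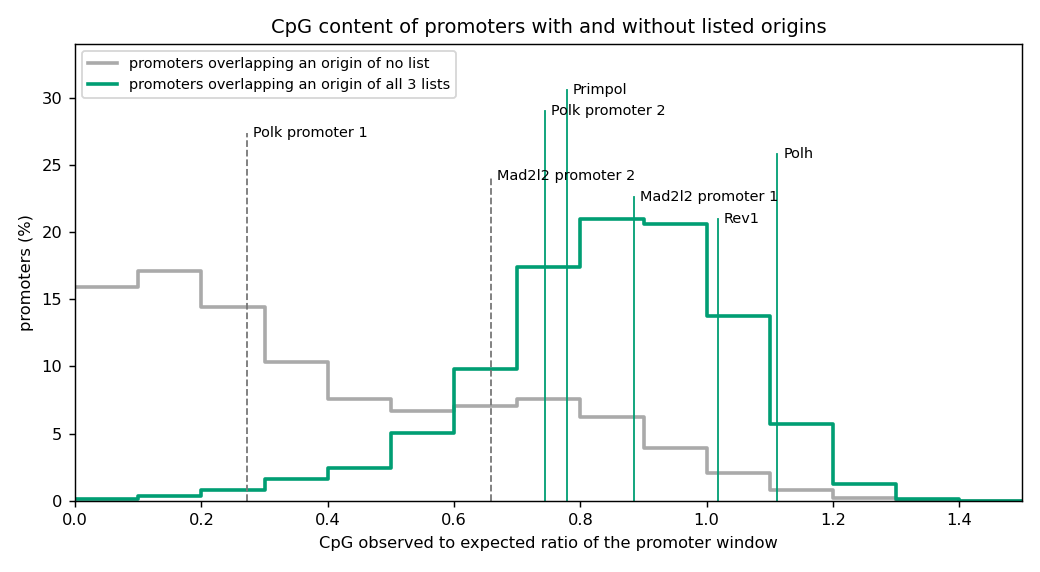
The lines give the percentage of promoters in each 0.1-wide step of the ratio of observed to expected CG dinucleotides, for promoters under origins of all 3 lists (green) and of none (grey). Vertical marks show the 7 promoters of the genes, at heights set only for legibility, with the 5 under listed origins between 0.744 and 1.11 and the dashed internal promoters of Mad2l2 and Polk at 0.659 and 0.271.

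Of 30 other damage tolerance genes, 13 (43.3%) had origins of all 3 lists, near the 41.6% of all protein-coding genes, and 9 had no listed origin. In 8 of them (26.7%, against 22.6%) a region of all 3 lists covered a gene end. The counts by role below are too small to set one role apart from these shares. The switch that ubiquitylates and deubiquitylates PCNA had 7 of 12 with all 3 lists, Ube2a, Ube2b, Ube2n, Ube2v2, Usp1, Wdr48 and Usp7. Neither Pold2 nor Pold3, the subunits that polymerase zeta shares with polymerase delta, had a listed origin, unlike Rev3l and Mad2l2. Poldip2, a partner of Primpol, had none, and of the 5 partners of Mad2l2 the shieldin genes Shld1 and Shld2 had all 3 lists while Shld3 and Trip13 had none. The remaining groups had 2 of 5 (Poll and Polb of the other specialised polymerases) and 2 of 6 (Smarcal1 and Rpa1 of fork reversal and single-strand binding).

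In the limma comparison of peak numbers, 28 of these genes were tested and none passed, while 6, 5 and 7 (21.4%, 17.9% and 25.0%) had an unadjusted p under 0.05, in the order of comparisons given above, against 7.65%, 8.82% and 9.64% of all genes tested. Their median log2 differences were −0.29, −0.02 and −0.03. Pold3 had 3 and 3 peaks in WT, 0 and 0 with APH, and 1 and 1 with CDC6, with APH minus WT at −1.90 ± 0.152 (log2, SE; limma adjusted p = 0.114). It was called with gene bodies alone (−1.90, limma adjusted p = 0.0139) and without WT 2 (−1.81, limma adjusted p = 0.0161). Pcna had 2 and 1, 0 and 0, and 3 and 2, with APH minus CDC6 at −1.83 (limma adjusted p = 0.179). Rad18, the ubiquitin ligase of PCNA, had 4 and 2, 1 and 1, and 4 and 4, with APH minus CDC6 at −1.29 (limma adjusted p = 0.420). Zranb3, a fork remodeller, had 7 and 4, 1 and 2, and 3 and 4, with APH minus WT at −1.17 (limma adjusted p = 0.503). In CDC6 minus WT the smallest unadjusted p-values were those of Pold3 at −0.87, Polq at −0.72 and Usp1 at −0.47, with limma adjusted p-values of 0.506, 0.506 and 0.563. Pold3 was −0.96 there without WT 1. Polq was called when each library gave the same number of strongest peaks (−0.74, limma adjusted p = 0.00285). In that setting 432 of the 447 genes called in CDC6 minus WT had no spread within any condition. The unscaled numbers of Pold3 were the same in both libraries of each condition, so its small SE and its calls rest on numbers without spread. In APH minus CDC6, Pold3 was −1.02 (limma adjusted p = 0.185), and it was called without WT 1 (limma adjusted p = 0.0387) and without WT 2 (limma adjusted p = 0.0176).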

How the data were processed

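Short nascent strands were sequenced from mouse embryonic stem cells. The tools were MACS2 2.0.10, BWA 0.7.10, Picard 1.107, SAMtools 0.1.19, bedtools 2.23.0 and FastQC, with GRCm38, mm10 and mm9 as builds, per the submitters' processing notes. No source used here gives their settings. The deposited MACS2 lists give per peak the fold (ratio) over a control shared by all libraries, the −log10 p-value and q-value and a score, all by the authors. The deposited origin lists and second lists carry 2 scores of unstated meaning.

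Peaks and origins that overlapped a window by at least 1 bp were counted. Peak numbers were scaled to the mean total, and genes with a mean of at least 1 were tested on the log2(number + 1) scale. The test was limma 3.58.1 under R 4.3.3 (eBayes with a trend, all 3 conditions in 1 fit, two-sided, Benjamini-Hochberg adjustment over all genes). The fit was first tried on simulated data. Only genes with a mean of at least 5 scaled peaks were changed in them, so recovery at the lower numbers of the members was not tested. Since lists hold no read numbers, no count test was possible. Overlaps were computed in Python 3.11.15. Other damage tolerance genes were named for the 3 smallest p-values per comparison. Genes of most similar pattern were to be named for members with a mean of at least 5 scaled peaks, which none reached. The members and lists were chosen with earlier results of these data known. Alternatives changed the scaling, window, overlap, peak threshold, pseudocount, filter, peak list, measure and libraries.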

Additional observations from a re-analysis of the deposited data

How the results depend on the processing

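The counts of genes with origins (7, 6 and 6 in WT, APH and CDC6) stayed within 1 gene under every alternative window, overlap, list length and rebuilding from MACS2 peaks, which gave 7 in each condition by adding Poli. The number of genes called by limma, 0 in each comparison, moved in 3 ways. With the same number of strongest peaks taken from each library it was 360 in APH minus WT, 447 in CDC6 minus WT and 411 in APH minus CDC6, but 344, 432 and 390 of these genes had whole-number counts with no spread within any condition. With bodies alone it was 5, 6 and 6. Leaving out 1 library gave 0 to 128 (128 without WT 2), 0 to 357 (357 without WT 1) and 0 to 118 (115 without WT 1, 118 without WT 2). The cause was not tested. With the replicate block, 0 genes were called in each comparison, and 985, 1030 and 1210 had an unadjusted p under 0.05. Deviations of libraries with the same number correlated at −0.15 between WT and APH, 0.01 between WT and CDC6 and −0.06 between APH and CDC6, so the numbers were not taken as a pairing.

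None of 336 values of the 7 genes under the alternatives was called, and the smallest adjusted p was 0.109 (Rev3l, APH minus WT, without WT 1). Of these values, 46 changed sign, all of differences not called, and the cause was not tested. In APH minus WT the second lists gave 0.30 for Rev1, 0.46 for Rev3l, 0.023 for Mad2l2 and 0.10 for Polk. Mad2l2 was 0.19 with bodies alone, 0.18 with 20 kb on either side and 0.19 by peak midpoint, Poli 0.39 by covered length and Primpol 0.038 by midpoint. In CDC6 minus WT the second lists gave 0.19 for Rev1, −0.18 for Mad2l2, 0.38 for Polk and −0.19 for Primpol. Peaks of q at most 0.01 gave 0.11 for Rev3l, −0.15 for Mad2l2 and −0.43 for Primpol. Equal peak numbers gave −0.21 for Mad2l2, covered length 0.13 for Polk and bodies alone −0.024 for Primpol. In APH minus CDC6 the second lists gave 0.11 for Rev1, 0.70 for Rev3l, 0.20 for Mad2l2, 0.11 for Polh, −0.28 for Polk and 0.10 for Primpol. Stricter peaks gave 0.042 for Rev1, 0.056 for Mad2l2, 0.027 for Poli and 0.34 for Primpol, and covered length 0.20 for Rev3l, 1.64 for Poli and −0.36 for Polk.

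Leaving out 1 library changed the sign in APH minus WT for Rev1 (−1.24 to 0.18), Mad2l2 (−0.25 to 0.22) and Primpol (−0.49 to 0.32), in CDC6 minus WT for Rev1 (−0.97 to 0.45) and Primpol (−0.34 to 0.47), and in APH minus CDC6 for Rev1 (−0.61 to 0.086), Mad2l2 (−0.39 to 0.083), Poli (−0.61 to 0.086), Polk (−0.0079 to 0.11) and Primpol (−0.39 to 0.083). Among the other named genes 6 of 130 values were called by limma: Pold3 in APH minus WT with bodies alone (−1.90, adjusted p = 0.0139) and without WT 2 (−1.81, 0.0161), in CDC6 minus WT without WT 1 (−0.96, 0.0438) and in APH minus CDC6 without WT 1 (−1.02, 0.0387) and without WT 2 (−1.02, 0.0176), and Polq in CDC6 minus WT at equal peak numbers (−0.74, 0.00285). Of the 130, 5 changed sign: Zranb3 0.66 (APH minus WT) and Polq 0.26 (CDC6 minus WT) with the second lists, Pold3 0.19 (CDC6 minus WT) and Rad18 0.32 (APH minus CDC6) by covered length, and Usp1 0.031 (CDC6 minus WT) with stricter peaks. The called Pold3 values rest on unscaled numbers without spread within any condition. Polq was called at equal peak numbers, where most called genes had no such spread. Poli had no value from the second lists, and with a mean of at least 3 peaks required only Rev3l was tested. With 2 libraries a condition and numbers of peaks mostly under 5, small differences at these genes were not detectable.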
